A study of Homo sapiens with 36 samples.

Results

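This report describes the places where HIF binding sites lie close together in the genome of 786-O, a human line of clear cell renal carcinoma. Peaks of the 15 anti-V5 lists from cells with a tagged HIF-α protein were merged wherever they overlapped, which gave 54907 regions. A region was kept if peaks of at least 2 tagged lists and of at most 1 list from untagged cells fell in it, which left 24875. Neighbouring kept regions with a gap of up to 12500 bp were joined into chains, and the regions in chains of 5 or more are the subject here. There were 2864 such regions, 11.51% of the kept regions, in 439 clusters. The regions were chosen by the peak calls of all tagged lists, so how often, how strongly and how closely they were called is given as a description. Calls were tested only where each library was scored on regions found without it.

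HIF is a dimer of an α subunit, HIF-1α or HIF-2α, with HIF-1β. When oxygen is sufficient, prolyl hydroxylases mark the α subunit and the VHL ubiquitin ligase removes it. In hypoxia, or without VHL, the dimer accumulates and binds the hypoxia response element (HRE), whose core is RCGTG, at genes of glycolysis, angiogenesis and pH control. Groups of sites bound by one transcription factor over many kilobases are known from promoters with distal enhancers and from stretches of enhancers dense in factors and coactivators.

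The 786-O line lacks VHL, so HIF-2α is stable, and it has no functional HIF-1α. Binding was measured by Cut&Run, in which a nuclease directed by an antibody releases the DNA around a bound protein, with anti-V5 and with IgG, in 6 lines of 3 replicates each and 36 samples in all. Wild-type (WT) cells were untagged. The knock-in (KIN) line, a single homozygous clone named A31, carried V5 and Halo at the N-terminus of both endogenous HIF-2α alleles. The other 4 lines stably expressed a V5-Halo fusion from an L30 promoter in addition to their own untagged HIF-2α. These fusions were HIF-2α, HIF-1α and 2 chimeras. HIF-2α/1α joined residues 1 to 365 of HIF-2α to residues 364 to 826 of HIF-1α, and HIF-1α/2α joined residues 1 to 363 of HIF-1α to residues 366 to 870 of HIF-2α. The first name thus gives the DNA-binding and dimerization part (DBD below) and the second the intrinsically disordered region (IDR). These 4 lines were selected with puromycin for their construct and kept in the antibiotic, and no such step is described for WT and KIN cells. Nothing in the labels says whether replicates came from separate cultures, so p-values measure only the spread between libraries.

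The files hold peaks only. The tagged lists held 3984 to 20808 peaks, and the fragment density of the background that could be recovered from 17 of the 18 lists was 0.241 to 0.536 per base, so a region without a call was not necessarily unbound. Untagged cells were not free of calls in the clusters. WT replicates 1, 2 and 3 had a peak in 0.0349%, 17.1% and 0.838% of the 2864 regions and in 0%, 9.82% and 0.468% of the 22011 other kept regions. In all, 516 regions of the clusters (18.02%) had a peak in a WT list, against 10.29% of the others, and 274 of the 439 clusters held at least 1 such region. The part of this background in the results was not tested, and values without any region called in WT cells are given below.

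The sequences at the strongest point of a cluster show which of 2 motifs lie there, and whether a call depends on them was not tested. For 8 clusters the summit of the strongest region with 50 bp on each side is shown, on the + strand of hg38 and 5′ to 3′. Capitals mark the HRE cores ACGTG and GCGTG, their complements CACGT and CACGC, and the AP-1 motif TGACTCA or its complement TGAGTCA. Both strands are read, and ACGTG and CACGT overlap in CACGTG. Over all 24875 kept regions 24.5% of such windows held an HRE core and 8.17% the AP-1 motif. For the strongest regions of the 439 clusters the shares were 29.61% and 9.567%. The 8 windows were picked from a larger set of named clusters, so motifs counted over them give no rate. The first 3 windows hold an HRE and show it alone or beside AP-1, the next 2 hold AP-1 only, and the last 3 hold neither. The regions of these last 3, at DDIT4, PFKP and VEGFA, were 5277, 4266 and 8522 bp long and were called in all 15 lists. The windows cover 101 bp of them and do not show whether an HRE lies elsewhere in the region.
ADM, chr11:10308158-10308258, between genes and 2831 bp from the ADM start: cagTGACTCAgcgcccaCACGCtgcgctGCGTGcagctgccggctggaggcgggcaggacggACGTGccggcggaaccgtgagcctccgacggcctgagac
SMAD3, chr15:67144859-67144959, in an intron of SMAD3: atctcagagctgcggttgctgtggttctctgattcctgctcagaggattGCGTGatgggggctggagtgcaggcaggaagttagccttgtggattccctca
TGFA, chr2:70554197-70554297, promoter of TGFA: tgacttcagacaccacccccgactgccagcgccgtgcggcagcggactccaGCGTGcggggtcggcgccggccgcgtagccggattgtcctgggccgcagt
SLC2A1, chr1:42962886-42962986, between genes and 4068 bp from the SLC2A1 start: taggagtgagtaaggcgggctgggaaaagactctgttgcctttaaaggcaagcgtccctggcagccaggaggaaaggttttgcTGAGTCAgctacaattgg
Near EGLN3, chr14:34035878-34035978, in an intron of EGLN3: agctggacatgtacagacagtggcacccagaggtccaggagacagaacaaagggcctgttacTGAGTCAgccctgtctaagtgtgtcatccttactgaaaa
DDIT4, chr10:72322346-72322446, between genes: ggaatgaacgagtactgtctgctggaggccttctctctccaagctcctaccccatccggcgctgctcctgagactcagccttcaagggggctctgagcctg
PFKP, chr10:3047275-3047375, between genes and 19008 bp from the PFKP start: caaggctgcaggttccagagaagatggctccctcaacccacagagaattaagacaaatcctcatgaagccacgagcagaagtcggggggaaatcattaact
VEGFA, chr6:43769759-43769859, promoter of VEGFA: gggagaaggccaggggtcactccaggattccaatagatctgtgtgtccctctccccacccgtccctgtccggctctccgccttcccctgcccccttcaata
The window at ADM, the gene of the vasodilator peptide adrenomedullin, held 3 HRE cores and 1 AP-1 motif, the most of the 8. The TGFA region was called in 14 lists and the other 7 regions in 15.

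Clusters were mostly small. Of the 439, 172 held 5 regions, 123 held 6, 93 held 8 or more and 39 held 10 or more, and the largest held 17. A cluster spanned 5.918 to 89.19 kb, with a median of 28.99 kb, and its regions covered a median of 21.16% of that span. The median gap between neighbours was 3.561 kb. The chosen threshold has close neighbours on both sides, since 414 chains held 4 regions, 80 of which had a further region within 15 kb, and 188 of the 439 clusters held a gap of over 10 kb. For 102 clusters another cluster lay within 100 kb. Clustered regions made up the largest part of the kept regions on chromosomes 22 (19.19%), 19 (18.02%), 16 (17.11%) and 17 (16.88%), followed by 21 (16.26%). They made up the smallest part of those with any on X (2.579%) and 4 (3.669%). Kept regions per Mb were 13.64, 19.31, 11.58 and 15.65 on the first 4, 7.9 on 21, 3.23 on X and 4.442 on 4.

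**Figure D1:**
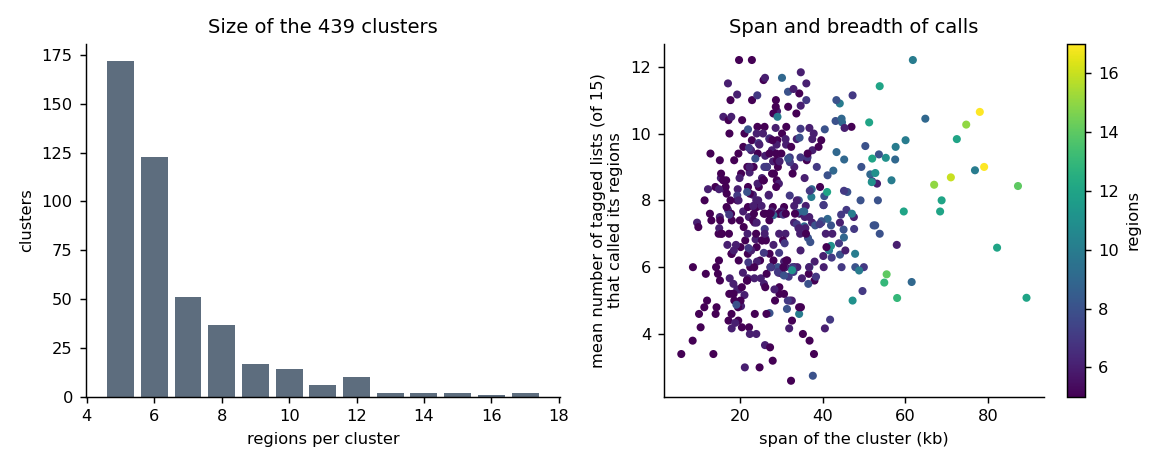
Left, number of clusters against regions per cluster, for clusters of 5 to 17 regions. Right, each point is a cluster, placed by its span in kb and by the mean number of tagged lists (of 15) that called its regions, and coloured by its number of regions. Of the 439 clusters 172 sit at 5 regions, the spans reach from 5.918 to 89.19 kb, and clusters of few and of many regions occur at low and high numbers of lists.

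The larger the chain, the more of its regions were called widely. A region was called in all 15 lists in 4.228% of the 11850 single regions, in 7.263% of the 10161 regions in chains of 2 to 4, in 12.67% of the clustered regions (363 of 2864) and in 14.63% of the 909 regions in chains of 8 or more. Calls in at least 2 of the 3 KIN libraries, where HIF-2α is at its endogenous locus, followed the same order with 14.69%, 20.6%, 30.94% (886 regions) and 35.97%. Calls in a WT list rose along the same order too, with 8.371%, 12.52%, 18.02% and 20.46%. These shares are not independent of the rule, which asks for neighbouring calls.

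Calls within a cluster were uneven. No cluster had all of its regions called in all 15 lists, 230 had at least 1 such region, 88 at least 2 and 28 at least 3, and 84 had no region called in 12 or more lists. The strongest region of a cluster, by −log10 q summed over the tagged lists, held a median of 53.67% of the cluster's sum, with a range of 17.76% to 98.70%. Of these 439 strongest regions 50.8% were called in all 15 lists, against 5.773% of the other 2425 clustered regions, and their median highest fold enrichment was 39.38 against 10.39. In the KIN line 368 clusters held at least 1 region called in 2 or more of the 3 libraries, 30 held 5 or more such regions, and 71 held none.

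The cluster over DDIT4, whose product restrains mTOR signalling in stress, had the most regions called in all 15 lists (chr10:72259868-72337793, 77.93 kb, 17 regions, 6 of them in all 15). KIN libraries called 7, 12 and 9 of its 17 regions, HIF-2α libraries 10, 16 and 9, HIF-2α/1α libraries 13, 17 and 13, HIF-1α libraries 10, 14 and 13, and HIF-1α/2α libraries 11, 14 and 13. WT libraries called 0, 5 and 0. The KIN libraries (7 to 12) lay under the HIF-2α/1α libraries (13 to 17), and the other tagged lines overlapped both. That order was not particular to DDIT4. Of all 2864 clustered regions KIN libraries called 20.95% to 47.49% and HIF-2α/1α libraries 48.32% to 72.52%. Of the other kept regions they called 10.83% to 30.57% and 41.78% to 69.67%. Its strongest region was not the DDIT4 promoter but a site between genes, 22565 bp from the DNAJB12 start, with a fold enrichment over IgG that averaged 63.96 ± 35.7 for KIN, 78.4 ± 45.1 for HIF-2α, 65.6 ± 32.5 for HIF-1α, 89.9 ± 40.6 for the HIF-2α/1α chimera and 77.5 ± 23.5 for the HIF-1α/2α chimera (SD, n = 3 each). The promoter region itself had its summit 55 bp from the DDIT4 start, held an HRE and was called in all 15 lists.

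ZNF395 encodes a zinc finger transcription factor. Its cluster (chr8:28341033-28420002, 78.97 kb) also held 17 regions, 5 of them called in all 15 lists, and no WT library called any. KIN libraries called 8, 14 and 9 regions, HIF-2α libraries 6, 16 and 6, HIF-2α/1α libraries 13, 12 and 7, HIF-1α libraries 8, 10 and 7, and HIF-1α/2α libraries 14, 14 and 9. The fold enrichment at its strongest region was 77.3 to 231.5 in the KIN libraries. It was 17.2 to 69.2 over the 12 libraries with an exogenous protein, so the groups did not overlap. Such a gap was not particular to ZNF395, and its direction varied. At the strongest regions of the ERRFI1 and ITGA3 clusters KIN libraries had 3.512 to 5.009 and 4.167 to 4.96. The lowest of the 12 exogenous libraries there had 5.606 and 6.235. At DDIT4 the groups overlapped. How many clusters show a gap was not counted. The ZNF395 cluster was named for its size, and its difference was seen afterwards and was not tested.

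EGLN3 is a prolyl hydroxylase that marks HIF-α and is itself a HIF target. A cluster of 10 regions covered the gene (chr14:33915263-33952084), and a second of 16 regions, all within an intron of a long EGLN3 transcript, lay further from the usual start (chr14:34011657-34082602). In the second, 5 regions were called in all 15 lists, and KIN libraries called 7, 12 and 8 regions, HIF-2α 7, 13 and 8, HIF-2α/1α 10, 9 and 9, HIF-1α 5, 10 and 7, and HIF-1α/2α 11, 15 and 8. WT libraries called 0, 2 and 0. Only 1 of the 16 regions had an HRE at its summit, in a region called in 3 lists.

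The SLC2A1 cluster (chr1:42922770-42974009) held 12 regions at the glucose transporter gene GLUT1, 4 of them called in all 15 lists. KIN libraries called 7, 9 and 8 of the 12, HIF-2α 6, 12 and 5, HIF-2α/1α 12, 10 and 8, HIF-1α 7, 9 and 7, and HIF-1α/2α 9, 8 and 7, while WT libraries called 0, 4 and 0. Each region was placed by 1 summit, that of its best-ranked peak, and none of these lay within 1 kb of a start site. The strongest region was 7813 bp long and reached over the SLC2A1 start, which lay 4068 bp from its summit. The promoter of SLC2A1 was thus not outside the called regions. The LIF cluster (chr22:30181880-30256529), near the gene of the cytokine leukaemia inhibitory factor, had 15 regions, all between genes, and 6 with an HRE. It also had the most regions with a call in untagged cells among the clusters named here, since WT libraries called 0, 7 and 1 of its regions.

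The cluster of 13 regions in and beside SUSD1 (chr9:112020162-112075047) was large but held no region called in all 15 lists. KIN libraries called 0, 7 and 4 of them, HIF-2α 5, 8 and 2, HIF-2α/1α 9, 9 and 4, HIF-1α 4, 4 and 4, and HIF-1α/2α 4, 6 and 2, while WT libraries called 0, 3 and 0. The ranges of the tagged lines overlapped.

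**Figure D2:**
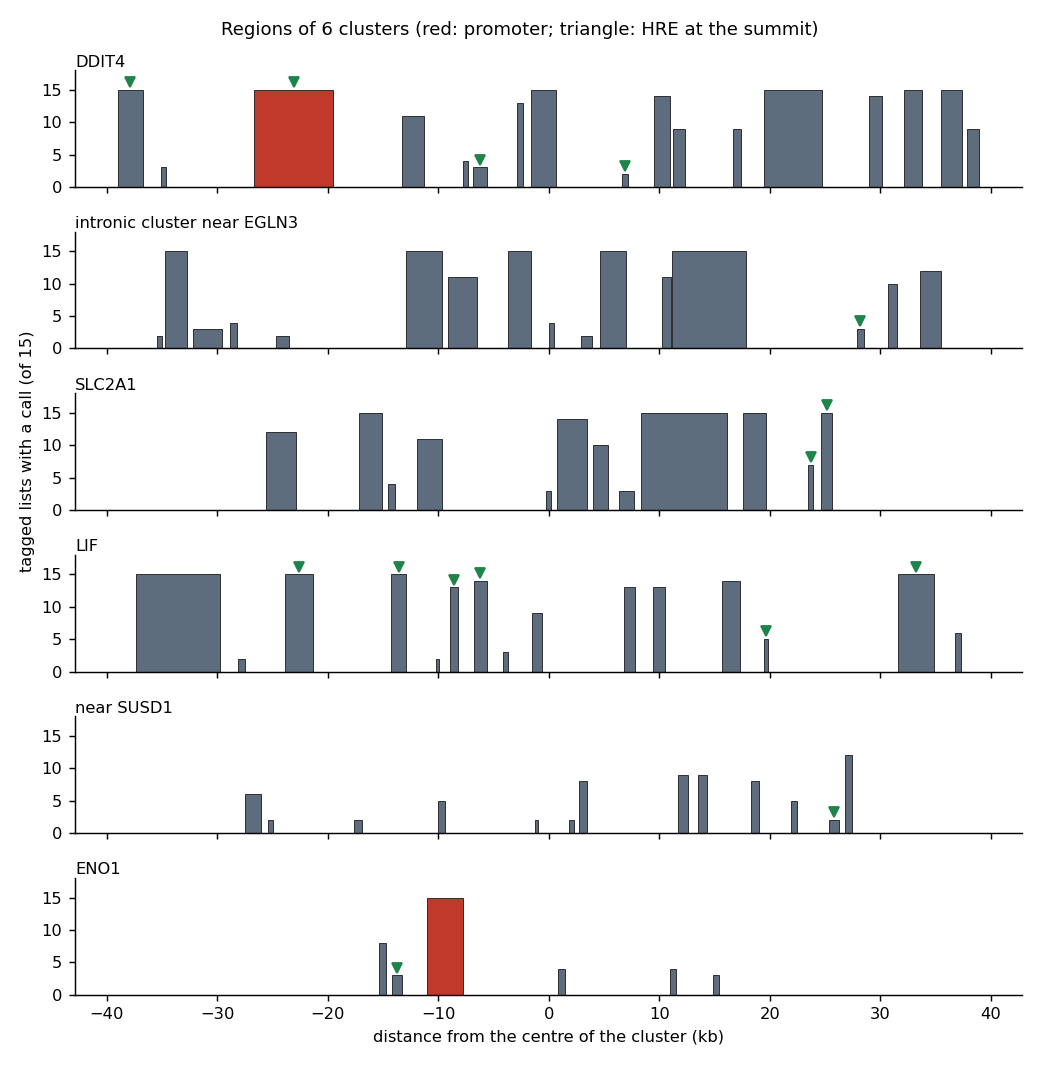
Each bar is a region of 1 of 6 clusters, drawn to scale by its distance in kb from the centre of the cluster, with height the number of tagged lists (of 15) that called it. Red bars have their summit within 1 kb of a protein-coding start site, and a triangle marks an HRE within 50 bp of the summit. At DDIT4 6 bars reach 15, while near SUSD1 none does and at ENO1 only the promoter does.

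Several known HIF target genes sat in clusters. Of 60 such genes 19 (31.67%) had a start site in a cluster or within 1 kb of it, and 57 (95%) had any kept region within 1 kb of a start. Over all 19689 protein-coding genes the same shares were 2.7% (531 genes) and 38.94% (7667 genes). Of 18 kidney lineage factors 0 had a start in a cluster and 10 had a region at a start, and of 10 AP-1 genes FOSL1 and JUNB were in clusters and 8 had a region. The target list holds genes known for HIF binding and its shares are a description.

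Most of these genes fall into groups by function. Glucose uptake and glycolysis gave SLC2A1, PFKP, PFKFB3, PGAM1, ENO1 and ENO2, and lactate export and pH control gave SLC16A3 and CA12. Secreted factors gave VEGFA, ADM, TGFA and PDGFB. Oxygen sensing and matrix hydroxylation gave EGLN3, JMJD6 and PLOD2, and growth and stress gave CCND1, DDIT4 and NDRG1.

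In several of these clusters 1 region carried most of the summed −log10 q, which measures significance and not the amount of binding. The strongest region held 95.3% of the summed −log10 q at PLOD2 (collagen lysyl hydroxylase), 94.72% at ENO1 (enolase), 91.71% at CA12 (carbonic anhydrase), 91.18% at ADM and 85.88% at VEGFA. At PLOD2, ENO1 and VEGFA it was the promoter, at CA12 an intron site 9185 bp from the start, and at ADM the site between genes shown above. The other 4 to 6 regions of each cluster shared the rest of that sum. The highest fold enrichment of the strongest region and of the next was 141.75 and 17.866 at PLOD2 and 140.2 and 19.506 at ENO1. It was 199.95 and 28.226 at CA12, 212.68 and 59.495 at ADM, and 132.97 and 40.588 at VEGFA. At VEGFA KIN libraries called 1, 2 and 1 of 6 regions, HIF-2α 2, 4 and 2, HIF-2α/1α 3, 4 and 1, HIF-1α 5, 2 and 2, and HIF-1α/2α 6, 5 and 3, with none in WT cells. At ADM the fold enrichment at the strongest region averaged 88.8 ± 66.0 for KIN, 74.3 ± 38.7 for HIF-2α, 61.6 ± 14.4 for HIF-1α, 134.6 ± 70.2 for the HIF-2α/1α chimera and 99.5 ± 47.3 for the HIF-1α/2α chimera (SD, n = 3 each), so the lines overlapped.

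PFKP (phosphofructokinase) had 9 regions, 4 of them called in all 15 lists, and its strongest held 41.26% of the sum. PFKFB3, which makes the activator of phosphofructokinase, had 10 regions and none in all 15. SMAD3, a mediator of TGF-β signalling and not on the target list, had 9 regions, 4 of them in all 15 lists, and each tagged library called 6 to 8 of the 9, although its strongest region held 73.46% of the sum.

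Clustered regions were less often at promoters. A promoter is here a summit within 1 kb of a protein-coding start site. In each library the regions called there were divided into clustered and other, and 20.21% ± 1.10 of the clustered against 32.73% ± 2.32 of the others (SD, n = 15 libraries) were promoters. The share was lower among the clustered regions in 15 of 15 libraries, by 9.86 to 15.38 percentage points, with a mean difference of −12.53 (two-sided exact sign permutation test over 15 libraries, p = 6.1e-05, the smallest it can give, adjusted p = 0.00018 over 9 tests). Libraries call many of the same regions, so this p covers the spread between libraries only. Over the regions themselves, of 2864 clustered regions 562 were promoters (19.62%), 93 in exons, 1248 in introns (43.58%) and 961 between genes (33.55%). In the same order the shares were 34.66%, 2.219%, 30.51% and 32.61% of single regions. Regions in chains of 2 to 4 had 25.13%, 2.913%, 36.96% and 35.01%, so the promoter share already fell in shorter chains. Of the 439 clusters 168 held no promoter region, 148 no start site at all, 183 the start of 1 gene and 20 those of 5 or more.

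The HRE was less frequent at clustered summits. Of the summit windows of 101 bp 24.98% ± 2.02 held an HRE core in clusters and 29.47% ± 1.86 elsewhere (SD, n = 15), lower in 15 of 15 libraries with differences of −5.681 to −3.455 points and −4.496 on average (same exact permutation test, p = 6.1e-05, adjusted p = 0.00018). Counted above the share in windows 1 kb to either side, the excess was 9.11 points in clusters and 14.90 elsewhere, a difference of −5.786 (exact permutation p = 6.1e-05, adjusted p = 0.00018). Promoters are rich in both HRE cores and CpG, so the comparison was repeated over peaks beyond 1 kb of a start site. There the shares were 22.19% ± 1.95 and 23.62% ± 1.86 (SD, n = 15), a difference of −1.424 (adjusted p = 0.00016), and that of the excess −3.523. With regions called in no WT list the difference over all peaks was −4.924. Counted by region, 20.74% of clustered regions held an HRE, against 22.59% in chains of 2 to 4 and 27.05% of single regions. Beyond 1 kb of a start site these shares were 17.9%, 18.6% and 20.79%, so regions in shorter chains were close to the clustered ones.

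**Figure D3:**
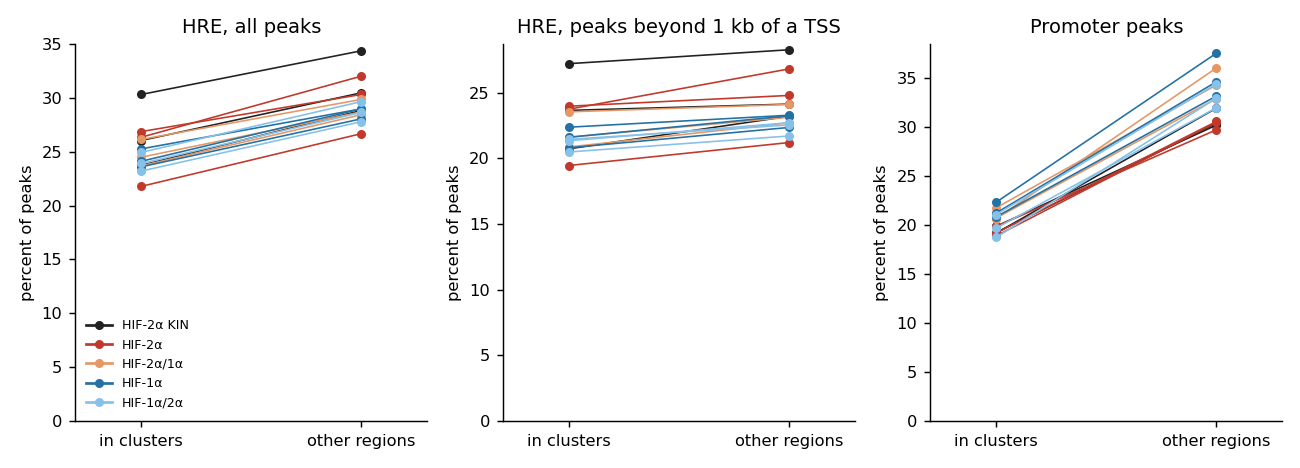
Percent of the peaks of a library with an HRE core at the summit (left), the same over peaks beyond 1 kb of a start site (middle), and percent at promoters (right), for clustered and other regions. Each line joins the 2 values of 1 of the 15 tagged libraries and is coloured by cell line. Every line rises from clusters to other regions in the left and right panels, and the slopes are shallower in the middle.

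The HRE followed how widely a region was called. Among clustered regions called in 2 lists 16.49% held an HRE (95% Wilson interval 13.42 to 20.10, n = 473), in 3 to 5 lists 15.70% (n = 726), in 6 to 10 lists 18.94% (n = 755), in 11 to 14 lists 26.51% (n = 547) and in all 15 lists 31.40% (26.85 to 36.35, n = 363). The shares among other regions were 19.34%, 21.31%, 27.91%, 32.40% and 33.98%. At 15 lists, where the intervals overlapped (31.39 to 36.66 for the others), regions beyond 1 kb of a start held an HRE in 28.87% of 291 clustered and 27.79% of 860 other regions. The strongest region of a cluster held an HRE in 29.61% (130 of 439) and the remaining clustered regions in 19.13% (464 of 2425). In 104 clusters no summit held one, in 167 exactly 1 did and in 168 at least 2 did.

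**Figure D4:**
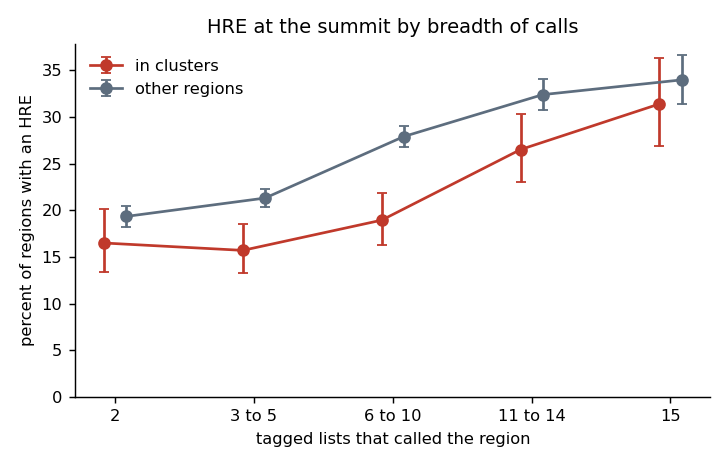
Percent of regions with an HRE core at the summit against the number of tagged lists that called the region, for clustered and other regions, with 95% Wilson intervals that cover counting error only. The share in clusters goes from 16.49% at 2 lists to 31.40% at 15 and lies under that of the other regions in every class.

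AP-1 motifs and base composition gave no stable difference. AP-1 is the FOS and JUN dimer that marks many enhancers. Its motif stood at 8.842% of clustered and 8.238% of other summits, a difference of 0.6036 (exact permutation p = 0.008, adjusted p = 0.018), but it was −0.9733 over peaks beyond 1 kb of a start site, and it no longer passed the test in 3 of 15 fits that each left out a library. For the G and C content the difference was −0.08942 points (adjusted p = 0.43, exact permutation p = 0.38).

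Clustered peaks were a little longer and, on average, lay on a higher background. Their median length per library averaged 476.1 bp against 400.4 bp elsewhere, and their median fold enrichment 8.421 against 8.032. The local background that the peak caller set from IgG was 5.155 ± 1.344 times the lowest level of the library in clusters and 4.237 ± 1.077 times elsewhere (SD, n = 14 libraries, since 1 list did not allow the value). It was taken over peaks with −log10 p under 100. KIN libraries had means of 6.942 and 4.885, but HIF-1α libraries 4.403 and 4.399. The 2 values were equal in HIF-2α replicate 2, HIF-1α replicates 2 and 3, and HIF-1α/2α replicate 2. The part of this background in the clustering was not tested.

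The share of clustered regions called differed widely among libraries of a line. KIN libraries called 20.9%, 47.5% and 34.7% of the 2864 regions, HIF-2α libraries 30.2%, 72.1% and 27.8%, HIF-2α/1α libraries 62.6%, 72.5% and 48.3%, HIF-1α libraries 56.6%, 67.7% and 57.1%, and HIF-1α/2α libraries 53.9%, 64.1% and 51.1%. In all 15 libraries a clustered region was called more often than another kept region, for instance 47.5% against 30.6% in KIN replicate 2 and 67.7% against 65.9% in HIF-1α replicate 2. HIF-2α replicate 2 stood apart from the other replicates of its line, and in all 6 lines, WT included, replicate 2 had the longest list and called the most clustered regions. Line means were 34.4% ± 13.3 for KIN, 43.4% ± 24.9 for HIF-2α, 61.2% ± 12.2 for HIF-2α/1α, 60.5% ± 6.28 for HIF-1α and 56.3% ± 6.84 for HIF-1α/2α (SD, n = 3 each). Exogenous HIF-2α exceeded KIN by 8.985 points, and without HIF-2α replicate 2 the difference was −5.545.

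Over the 12 libraries with an exogenous protein, the 6 with the HIF-2α IDR called 10.96 points fewer of the clustered regions than the 6 with the HIF-1α IDR, and the difference was −17.58, −2.043 and −13.27 within replicates 1, 2 and 3. Between the DBDs, HIF-2α minus HIF-1α, it was −6.157 points. The IDR difference turned with list length, since over the strongest 3984 peaks of each list, as many as the shortest tagged list holds, it was 2.264 points in the other direction.

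A larger share of the called regions of a library lay in clusters with the HIF-2α IDR. Libraries with that IDR had 14.67% ± 1.37 (12.87% to 16.25%) of their called regions in clusters, and those with the HIF-1α IDR 12.41% ± 0.566 (11.80% to 13.08%, SD, n = 6 each). The difference was 2.259 points, and within replicates 1, 2 and 3 it was 2.558, 1.312 and 2.907. The groups overlapped through HIF-2α replicate 2 at 12.87%. By line the shares were 15.09% ± 1.93 for HIF-2α, 14.24% ± 0.659 for HIF-1α/2α, 12.64% ± 0.619 for HIF-2α/1α and 12.18% ± 0.510 for HIF-1α, and KIN had the highest of the tagged lines at 17.85% ± 1.96 (SD, n = 3 each). The IDR difference was 2.457 on the HIF-2α DBD and 2.061 on that of HIF-1α, and the DBD difference in the share was 0.6575.

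Lists differed in length, so the shares were also taken over those strongest 3984 peaks of each list and the same 2864 regions. They were then 17.05% ± 0.312 (16.70% to 17.62%) for the HIF-2α IDR and 15.03% ± 0.380 (14.58% to 15.65%) for that of HIF-1α, a difference of 2.019 points with no overlap. Over peaks beyond 1 kb of a start site the shares were 16.82% ± 1.44 and 14.61% ± 0.846 (SD, n = 6 each), and with regions called in no WT list the difference was 1.463. In untagged cells the share was 18.5% in WT replicate 2 and 18.9% in replicate 3, higher than in any library with an exogenous protein, and WT replicate 1 called 1 region. The part of background calls in the difference was not tested.

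**Figure D5:**
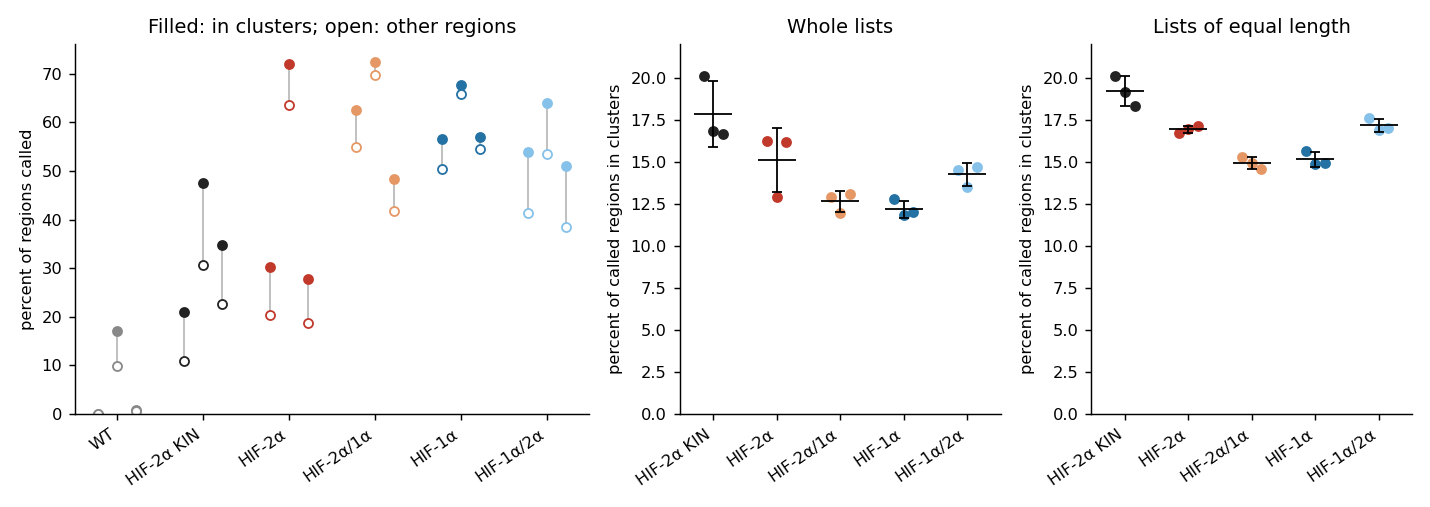
Left, percent of the clustered regions (filled) and of the other kept regions (open) that each library called, by line. Middle, percent of the regions called in each tagged library that lie in clusters, and right, the same with the strongest 3984 peaks of each list. Points are libraries, and lines and bars are means ± SD (n = 3). In the right panel the 6 libraries with the HIF-2α IDR sit between 16.70% and 17.62% and the 6 with the HIF-1α IDR between 14.58% and 15.65%.

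These calls had also chosen the regions. For a test each library was therefore scored on clustered regions found anew from the other 14 tagged lists and the WT lists. This step was chosen after seeing the data. The other libraries of its line, and the libraries of other lines with the same IDR, still took part in finding the regions. The KIN lists, which carry the HIF-2α IDR, took part each time, and no KIN line exists for HIF-1α. More of the lists that found the regions therefore carried the HIF-2α IDR. The regions were thus not free of the calls by IDR, and the p-values do not cover that. A difference by IDR cannot be told apart here from this way of finding the regions. Found in this way there were 2533 to 2846 clustered regions. The share of a library's called regions that lay in them was 14.44% ± 1.55 (12.33% to 16.3%) with the HIF-2α IDR and 12.22% ± 0.607 (11.46% to 13.02%) with that of HIF-1α (SD, n = 6 each). The difference was 2.22 points (two-sided exact permutation test within DBD, 400 relabellings, p = 0.015, adjusted p = 0.027 over 9 tests), with 2.672, 1.277 and 2.711 within replicates 1, 2 and 3. The call was lost, with an adjusted exact permutation p = 0.054 in each case, without HIF-1α replicate 1 (2.304), replicate 2 (2.114) or replicate 3 (2.168). With the strongest 3984 peaks of the scored library it was 16.56% ± 0.556 against 14.45% ± 0.438 (SD, n = 6 each), a difference of 2.114 with no overlap (exact permutation p = 0.005, the smallest that 400 relabellings give, adjusted p = 0.009). For the DBD the difference in the share was 0.6153 (exact permutation p = 0.395, adjusted p = 0.44).

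The percent of these regions that a library called gave a call that depended on the fit. HIF-2α IDR minus HIF-1α IDR came to −10.82 points, which did not pass (p = 0.215 by exact permutation, 0.32 adjusted). Inside replicates 1, 2 and 3 the values were −17.13, −1.893 and −13.43. With the replicate number as a block it had p = 0.031, the smallest that 64 relabellings give (exact permutation, adjusted p = 0.047). With the strongest 3984 peaks of the scored library it turned to 2.13 points (exact permutation p = 0.005, adjusted p = 0.009). Between the DBDs it came to −6.056 (p = 0.45 by exact permutation, 0.45 adjusted). Exogenous HIF-2α exceeded KIN by 9.034 points (exact permutation p = 0.7, with 0.1 the smallest p that 3 against 3 allow).

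Single regions are given as counts, since their calls chose them and since 6 against 6 libraries allow no p of Fisher's exact test under 0.00216. At an unadjusted p under 0.05 in that test, 3 clustered regions were called more with the IDR of HIF-2α and 20 with that of HIF-1α, 0.105% and 0.698% of 2864, against a background of 0.0965% and 1.34% of all kept regions. By DBD the counts were 2 with HIF-2α and 9 with HIF-1α, 0.0698% and 0.314%, against 0.0764% and 0.494%.

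The 5 clusters most different by IDR were chosen for that and are described without a test. All 5 were called more with the HIF-1α IDR. At RHOF (a small GTPase) and SETD1B (a histone methyltransferase) HIF-2α/1α libraries called 5, 5 and 5 of 6 regions and HIF-1α libraries 4, 4 and 6, against 0, 3 and 0 with HIF-2α and 2, 2 and 2 with HIF-1α/2α. At LTBP4, which binds latent TGF-β, and SHKBP1 the calls were 4, 5 and 3 of 5 and 2, 3 and 4, against 1, 1 and 1 and 0, 1 and 1. The others were clusters in introns of UQCC1 near FAM83C, at IQCD and TPCN1, and at DNAJB1, NDUFB7 and TECR, with mean differences, HIF-2α IDR minus HIF-1α IDR, of −55.56, −50.0 and −47.22 points of their regions called. Of the 439 clusters 323 had a higher mean percent called with the HIF-1α IDR and 92 with the HIF-2α IDR. This direction was not particular to clusters. Libraries with the HIF-1α and HIF-2α IDR called on average 60.82% and 49.85% of the clustered regions, and 56.22% and 39.31% of the other kept regions. The part of list length in these counts was not tested.

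By DBD the most different clusters included both directions. They were chosen for their difference and are described without a test. The mean percent called was higher with the HIF-1α DBD in 298 of the 439 clusters and with the HIF-2α DBD in 103. Libraries with the HIF-1α and HIF-2α DBD called on average 58.41% and 52.26% of the clustered regions, and 50.7% and 44.83% of the others. More calls with the HIF-1α DBD were thus not particular to clusters. The cluster at VGF, a secreted neuropeptide precursor, was called more with the HIF-2α DBD, with 1, 5 and 1 of 5 regions in HIF-2α and 3, 5 and 1 in HIF-2α/1α libraries against 1, 2 and 0 in HIF-1α and 0, 1 and 0 in HIF-1α/2α, and the groups overlapped. An intronic cluster of TCF7L2, a Wnt pathway factor, was called more with the HIF-1α DBD, with 4, 3 and 1 of 5 regions in HIF-1α and 3, 4 and 3 in HIF-1α/2α against 1, 2 and 1 and 1, 1 and 1, and KIN libraries called none. At ENO1 HIF-1α libraries called 3, 3 and 4 of 6 regions and HIF-1α/2α libraries 3, 4 and 6, against 1, 3 and 1 with HIF-2α and 2, 2 and 1 with HIF-2α/1α. The ENO1 promoter was called in all 15 lists, so these differences lay in the weaker regions beside it. A cluster in ITGB3, an integrin subunit gene, also had more calls with the HIF-1α DBD, with a mean difference, HIF-2α DBD minus HIF-1α DBD, of −36.11 points of its regions called.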

How the data were processed

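Peaks were measured by Cut&Run in 18 anti-V5 libraries, each called against its matched IgG control. Per the study's methods and the submitters' processing notes, the authors aligned paired reads to hg38 with Bowtie2 2.3.4.1, used SAMtools 1.8, called peaks in each replicate with MACS2 at q 0.01, and removed blacklisted regions with bedtools 2.28.0. The deposited lists give, per peak, the fold enrichment over local background (a ratio), the −log10 p and the −log10 q at the summit, and the summit's position. No read counts were used, and the depth per library is known only as the background density recovered from the deposited fold and −log10 p values. Intervals cover counting error only.

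Peaks on chromosomes 1 to 22, X and Y that overlapped by at least 1 bp were merged, and regions were chained by the rule in the report. A region was represented in a library by its strongest peak. Summits were placed by GENCODE 44 (promoter within 1 kb of a protein-coding start, then exon, intron, or between genes), and motifs were searched in 101 bp of hg38 with Python 3.11.15, pysam 0.24.0, pandas 2.3.3 and SciPy 1.17.1. Domain differences were tested by exact permutation over the 12 exogenous libraries within strata of the other domain, with each library scored on regions found without its list, sequence differences by exact sign permutation over 15 libraries, with Benjamini-Hochberg adjustment over 9 tests. Scripts were tested on simulated data.

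The regions, the gene lists and the tests were chosen with earlier results of these data known. Clusters were named by rule, as the 12 with most regions, the 8 with most regions called in all 15 lists, those with a start site of a HIF target gene, and the 5 most different by IDR and by DBD, and not every one of them is described, since some items are not reported here. A cluster is named for the protein-coding genes with a start within 1 kb of it, or else for the nearest. Other gaps, sizes, list and WT limits, peak strengths, windows, list lengths and libraries left out were tried as alternatives.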

Additional observations from a re-analysis of the deposited data

How the results depend on the processing

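The number of regions and clusters followed the rule. Clusters with gaps up to 5 kb held 717 regions in 125 clusters, those with gaps up to 25 kb 6624 in 884, chains of 8 or more 909 in 93, regions in at least 3 lists 1752 in 283, regions in no WT list 1667 in 275, and lists of equal length 127 in 20. Leaving out 1 tagged library left 2533 to 2846 regions in 389 to 437 clusters.

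The lower promoter share (−19.62 to −8.677), lower HRE share (−7.061 to −0.4911) and lower HRE excess (−9.174 to −0.6101) kept their direction under all alternatives run, and their call except where 5 line means or 3 replicate means replaced the 15 libraries. Those fits had the same differences (−12.53, −4.496, −5.786 and, for AP-1, 0.6036), with adjusted exact permutation p of 0.1406 (AP-1 0.225) over lines and 0.375 over replicates, where 0.0625 and 0.25 are the smallest unadjusted p that 5 and 3 means allow. With 1 library left out they ran from −12.89 to −12.06, −4.796 to −4.166 and −6.196 to −5.469.

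The higher share of clustered regions with the HIF-2α IDR kept its direction (0.597 to 3.01, and 1.848 to 2.64 with 1 library left out). Scored on regions found without each library it lost its call without any 1 of the 3 HIF-1α replicates, but not with the strongest peaks (1.978 to 2.291). The DBD difference in that share turned to −0.0456 with lists of equal length to −0.2355 with the strongest peaks of each list and the regions kept, and to −0.2799 with those of each library scored on regions found without it (−0.6125 to 1.05 with 1 library left out). The IDR difference in the percent of clustered regions called turned to 14.83, 2.264 and 2.13 in the same fits, with −16.18 to −6.509 when 1 library was left out of the other fits and 1.926 to 2.386 of the last, and the DBD difference ran from −10.89 to −0.0751. Exogenous HIF-2α against KIN turned to −1.05 with lists of equal length, −0.4936 with the strongest peaks on regions found without the library, and to −5.545 without HIF-2α replicate 2 (−5.545 to 16.86).

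The AP-1 difference lost its call with gaps up to 5 kb (0.5512), chains of 8 or more (0.03106), −log10 q of at least 5 (0.2773), lists of equal length (0.498) and at least 3 lists (0.4935), and without KIN replicate 2, HIF-2α replicate 2 or HIF-1α/2α replicate 3 (0.3895 to 0.7557 over all 15). It turned to −0.9733 over peaks beyond 1 kb of a start site. The G and C difference turned to 0.2282 and 0.4108 with gaps up to 5 and 25 kb, 0.1887 with equal lengths, 0.26 with 3 lists, 0.3404 with peaks reduced to 100 bp on each side of the summit and 2.253 beyond 1 kb of a start site. It passed the test in both directions, at −0.2818 in chains of 8 or more and −0.9377 without WT calls, and at the values of 0.4108, 0.26, 0.3404 and 2.253 (adjusted exact permutation p of 0.003406, 0.04438, 0.01857 and 0.0001628). It ran from −0.1557 to 0.1517 with 1 library left out, turning in 5 of 15 fits. The cause of these changes was not tested.

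Correlations of calls over regions between same-numbered libraries of different lines were −0.0159 to 0.0636 (median 0.0166, 30 pairs), against −0.046 to 0.0472 (median −0.008) in 60 others. Their list lengths did move together, with replicate 2 the longest in 6 of 6 lines, and the labels do not say what a number shares. With the replicate block the IDR difference in the percent called was −10.96 on the regions that these calls chose, given as a description. On regions found without each library it was −10.82, with an adjusted p of 0.04688 (exact permutation), and no other call by domain changed there. The fits on regions found without the library scored, on the strongest peaks and on peaks beyond 1 kb of a start site with the regions kept were added after seeing the data. Without read counts, depth limits what a missing call can show.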
